A study of Rattus norvegicus with 15 samples.

Results

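The comparison described here sets ligated rats that received the preparation named YH against ligated rats left untreated. It used 6 of the 15 lumbar spinal cord RNA-seq libraries, chosen by title alone: CCI+YH replicates 1 to 3 and CCI replicates 1 to 3. The animals were adult male Sprague-Dawley rats of 180 to 200 g. In all 6 the left sciatic nerve carried 4 loose ligatures, the chronic constriction injury (CCI). The treated animals were given YH at 7.2 g crude drug per kg on each of 5 days, from postoperative day 6 to day 10. Cord segments L4-L6 of the ligated side were taken on day 10, so the treatment and the untreated interval ended at the same age of the lesion. The labels assign 7 rats to each ligated group and give 3 sequenced samples per group, without saying that each sample is a separate rat. The labels mention no vehicle for the CCI group. Sham rats, whose nerve was exposed without ligation, and ligated rats given the whole Yuan-Hu Zhi Tong prescription (YZP, 10.8 g crude drug per kg) or the preparation BZ (3.6 g crude drug per kg) entered the same statistical fit, with 3 libraries each, and are quoted only as points of reference.

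Loose ligation of the sciatic nerve makes the nerve swell against the thread and leaves it partly demyelinated and inflamed. Injured afferents then drive neurons of the dorsal horn harder, spinal microglia and astrocytes become reactive, and the animal develops mechanical and thermal hypersensitivity on the ligated side. Yuan-Hu Zhi Tong is a traditional Chinese analgesic prescription made from corydalis rhizome (yuanhu) and Angelica dahurica root (baizhi). The labels do not spell out YH or BZ, and both are called here by those letters. Alkaloids of corydalis, tetrahydropalmatine among them, are known for actions on dopamine receptors and for pain relief in rodents. Bulk tissue mixes neurons, glia, vessels and meninges, so that a lower level can come from fewer cells of a type or from less RNA per cell, and these cannot be told apart.

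Of 34202 rows in each count table, 14960 (43.7%) reached a CPM (library-scaled count) of 1 in at least 3 of the 6 libraries and were tested. They held at least 99.8% of the counts of each library. Ensembl rat identifiers labelled 14221 of the tested rows, and 739 were loci that the authors marked only by a running number. The identifiers could not be turned into gene symbols, since neither the tables nor the reference table used here pairs them. Genes are therefore given by identifier, without a statement on function, and neither the marker genes of the cord nor any pathway list could be checked.

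No gene passed the adjustment for multiple testing. The quasi-likelihood test of edgeR, with a Benjamini-Hochberg adjusted p under 0.05 as the threshold, called 0 of 14960 genes (0%) in CCI+YH against CCI. The smallest adjusted p was 0.143 and the next was 0.493. At an unadjusted p under 0.05 there were 827 genes (5.53%), 448 higher (2.99%) and 379 lower (2.53%) in CCI+YH, where 748 would be reached with no effect at all. Limma voom called 0 genes. DESeq2, run on the same genes and libraries, called 13 (0.087% of 14947), of which 3 were higher (0.0201%) and 10 lower (0.0669%), and these are described further on.

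The changes that the data could have held were bounded more tightly than the call count alone shows. The median size of the log2 fold change was 0.085, and its median standard error (SE) was 0.115. For 13687 genes (91.5%) the 95% interval of the log2 fold change lay wholly between -1 and 1, so that a change of 2-fold or more lay outside the interval. For 10332 genes (69.1%) it lay between -0.5 and 0.5. Precision followed abundance. Among 1236 genes with a mean under 2 CPM the median SE was 0.32, and 54.6% had an interval within 2-fold. Among 1994 genes at 100 CPM or more the median SE was 0.0711, and 99.3% had an interval within 2-fold. The share of genes at an unadjusted p under 0.05 ranged from 3.91% in the most abundant class to 6.66% among 1832 genes of 2 to 5 CPM.

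Differences of 2-fold or more were more often downward. A log2 fold change of 1 or more in either direction was seen at 165 of the 14960 genes, 58 higher and 107 lower in CCI+YH. At 96 of the 165 the unadjusted p was under 0.05 (29 higher, 67 lower). These 165 genes were of low abundance, with a median of 4.96 CPM against 20.8 CPM over all tested genes. The filter lets a gene pass through 1 group alone. At 23 genes all 3 CCI libraries held 1 CPM or more and all 3 CCI+YH libraries less, and at 4 genes the reverse held. The share of the downward excess that comes from such genes was not tested. At 11 of the 14960 genes the 95% interval excluded every change smaller than 2-fold. These intervals are not adjusted for the number of genes, and none of the 11 passed the adjusted threshold in edgeR.

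**Figure D1:**
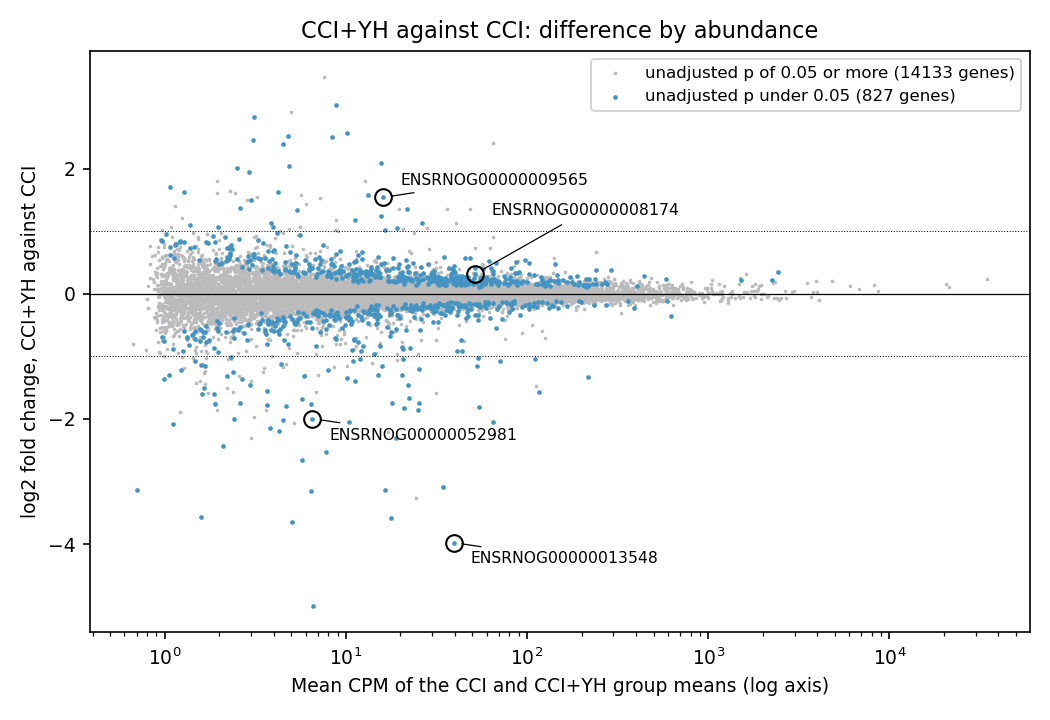
Log2 fold change of CCI+YH against CCI (vertical axis) by mean CPM (horizontal axis, log scale) for 14960 genes; blue points have an unadjusted p under 0.05 (827 genes), circles mark the 4 identifiers described in the text, and dotted lines mark a 2-fold difference. Among genes past the dotted lines, 107 lie below and 58 above.

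The 4 identifiers described here were chosen for the smallest p in each direction, so groups that do not overlap go with that choice. ENSRNOG00000013548 had the smallest p of all tested genes in this comparison. Its level was 66.3, 114 and 41.6 CPM in CCI replicates 1, 2 and 3. It was 4.42, 4.37 and 5.31 CPM in CCI+YH replicates 1, 2 and 3, from 67, 89 and 91 counts. Every treated library therefore lay below every untreated one, and the treated libraries lay close together while the untreated ones spread widely. The group means, with SD over 3 libraries, were 74.0 ± 36.8 and 4.70 ± 0.531 CPM. The log2 fold change was -3.98 (95% interval -5.23 to -2.72, SE 0.584), which is 15.8-fold lower. Its edgeR adjusted p was 0.143, short of the threshold, and its DESeq2 adjusted p was 2.91e-08. Over 38 alternatives the adjusted p ran from 2.91e-08 to 0.743, and 12 of them passed the threshold, every DESeq2 fit among them. The fold change itself moved little, between -4.26 and -3.52.

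At ENSRNOG00000013548 the CCI+YZP libraries lay nearest to those of CCI+YH, and sham and CCI+BZ libraries lay higher. Sham libraries held 57.4, 43.9 and 14.5 CPM, and CCI+BZ libraries held 131, 74.2 and 39.4 CPM, all above the treated range of YH. CCI+YZP libraries held 11.6, 7.11 and 6.35 CPM, below every sham, CCI and CCI+BZ library and above every CCI+YH library. CCI+YH was lower than CCI+BZ, at -4.12 on the log2 scale with an SE of 0.586 and an edgeR adjusted p of 0.0208. That comparison called 7 genes (0.0468%), 5 higher (0.0334%) and 2 lower (0.0134%) in CCI+YH. This call was lost in limma voom (adjusted p = 0.291) and without any one CCI+YH library (0.136 to 0.179), without CCI+BZ replicate 1 (0.0613) or without CCI+BZ replicate 2 (0.111). Against CCI+YZP the log2 fold change was -0.82 with a 95% interval of -2.16 to 0.52 (edgeR adjusted p = 1), so the order of those neighbours is not settled by these libraries. Against sham it was -3.04 (SE 0.58, edgeR adjusted p = 0.0806), where 8 other genes were called (0.0535%), 4 higher (0.0267%) and 4 lower (0.0267%). The doses of the preparations differed, as given above.

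ENSRNOG00000052981, the other identifier on the lower side, was a gene of low abundance. CCI replicates 1, 2 and 3 held 9.01, 9.27 and 13.1 CPM, and CCI+YH replicates held 2.90, 2.89 and 2.04 CPM, from 35 to 59 counts. The groups did not overlap. The group means, with SD over 3 libraries, were 10.5 ± 2.30 and 2.61 ± 0.494 CPM. CCI+YH was 3.99-fold lower (95% interval -2.82 to -1.18 on the log2 scale, SE 0.382), with an edgeR adjusted p of 0.493 and a DESeq2 adjusted p of 0.000745. For ENSRNOG00000052981 5 of 38 alternatives passed the threshold (range 0.000745 to 1), all of them DESeq2 fits. DESeq2 no longer called it when CCI replicate 3 (adjusted p = 0.0547) or CCI+YH replicate 3 (0.0517) was left out. Sham libraries, at 3.98, 2.59 and 7.88 CPM, covered the range from inside the YH group to just under the CCI group. CCI+YZP libraries stood at 3.88, 4.08 and 1.76 CPM and overlapped those of CCI+YH, and CCI+BZ libraries stood at 6.01, 3.89 and 5.03 CPM, all above CCI+YH. The difference between CCI+YH and CCI+BZ was -0.93 on the log2 scale (95% interval -1.75 to -0.10, edgeR adjusted p = 0.871), and that between CCI+YH and CCI+YZP was -0.30 (-1.14 to 0.55, edgeR adjusted p = 1).

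ENSRNOG00000009565 was the larger of the differences on the higher side. CCI replicates 1, 2 and 3 held 10.0, 9.14 and 5.42 CPM, and CCI+YH replicates held 23.6, 22.2 and 26.4 CPM. Each treated library was above each untreated one. The group means, with SD over 3 libraries, were 8.19 ± 2.44 and 24.0 ± 2.15 CPM. The log2 fold change was 1.54 (95% interval 0.88 to 2.21, SE 0.309), or 2.92-fold. The edgeR adjusted p was 0.493 and the DESeq2 adjusted p 0.000745. For ENSRNOG00000009565 7 of 38 alternatives passed the threshold (range 0.000745 to 1). All were DESeq2 fits except the edgeR fit of 5 libraries without CCI replicate 3 (adjusted p = 0.0319). The DESeq2 call was lost without CCI+YH replicate 3 (adjusted p = 0.0517). Sham libraries, at 7.06, 12.5 and 11.8 CPM, overlapped those of CCI, and CCI against sham gave -0.35 (95% interval -1.01 to 0.32, edgeR adjusted p = 0.577). Every treated group was above CCI at this gene: CCI+YZP libraries held 45.6, 20.3 and 38.2 CPM and CCI+BZ libraries 15.7, 14.1 and 22.9 CPM. CCI+YH lay between the means of these groups, and its differences from them had intervals that included 0 (-1.16 to 0.10 against CCI+YZP and -0.19 to 1.09 against CCI+BZ, edgeR adjusted p = 1 and 0.986).

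ENSRNOG00000008174 had a small difference between tight groups. CCI replicates 1, 2 and 3 held 46.8, 46.8 and 44.5 CPM, and CCI+YH replicates held 58.9, 56.8 and 57.1 CPM. The gap between the groups exceeded the spread within either. The group means, with SD over 3 libraries, were 46.0 ± 1.31 and 57.6 ± 1.15 CPM. The log2 fold change was 0.32 (95% interval 0.19 to 0.45, SE 0.0617), or 1.25-fold, with an edgeR adjusted p of 0.493 and a DESeq2 adjusted p of 0.0226. Only 1 of 38 alternatives, DESeq2 on all libraries, passed the threshold for ENSRNOG00000008174, and the DESeq2 call was lost without any one of the 6 libraries (adjusted p = 0.0599 to 0.242).

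Sham libraries held the highest levels of ENSRNOG00000008174, at 66.8, 61.8 and 61.5 CPM, all above the CCI+YH libraries. It was lower in CCI than in sham, at -0.46 on the log2 scale with an SE of 0.0614 and an edgeR adjusted p of 0.0231, one of 3 genes called there (0.0201%). That call was lost without Sham replicate 1 (adjusted p = 0.156) or 2 (0.0662), without any one CCI library (0.0644 to 0.182) and without CCI+YH replicate 1 (0.0507). With the replicate number as a block it had an adjusted p of 0.097. CCI+YH against sham gave -0.14 (95% interval -0.27 to -0.01, edgeR adjusted p = 0.347). CCI+YZP libraries held 52.7, 49.1 and 54.7 CPM and CCI+BZ libraries 51.4, 58.8 and 53.3 CPM, between CCI and sham as well. The comparisons of treated groups with CCI, and that of CCI with sham, share the CCI libraries, so their values are set side by side here and not counted as separate evidence.

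**Figure D2:**
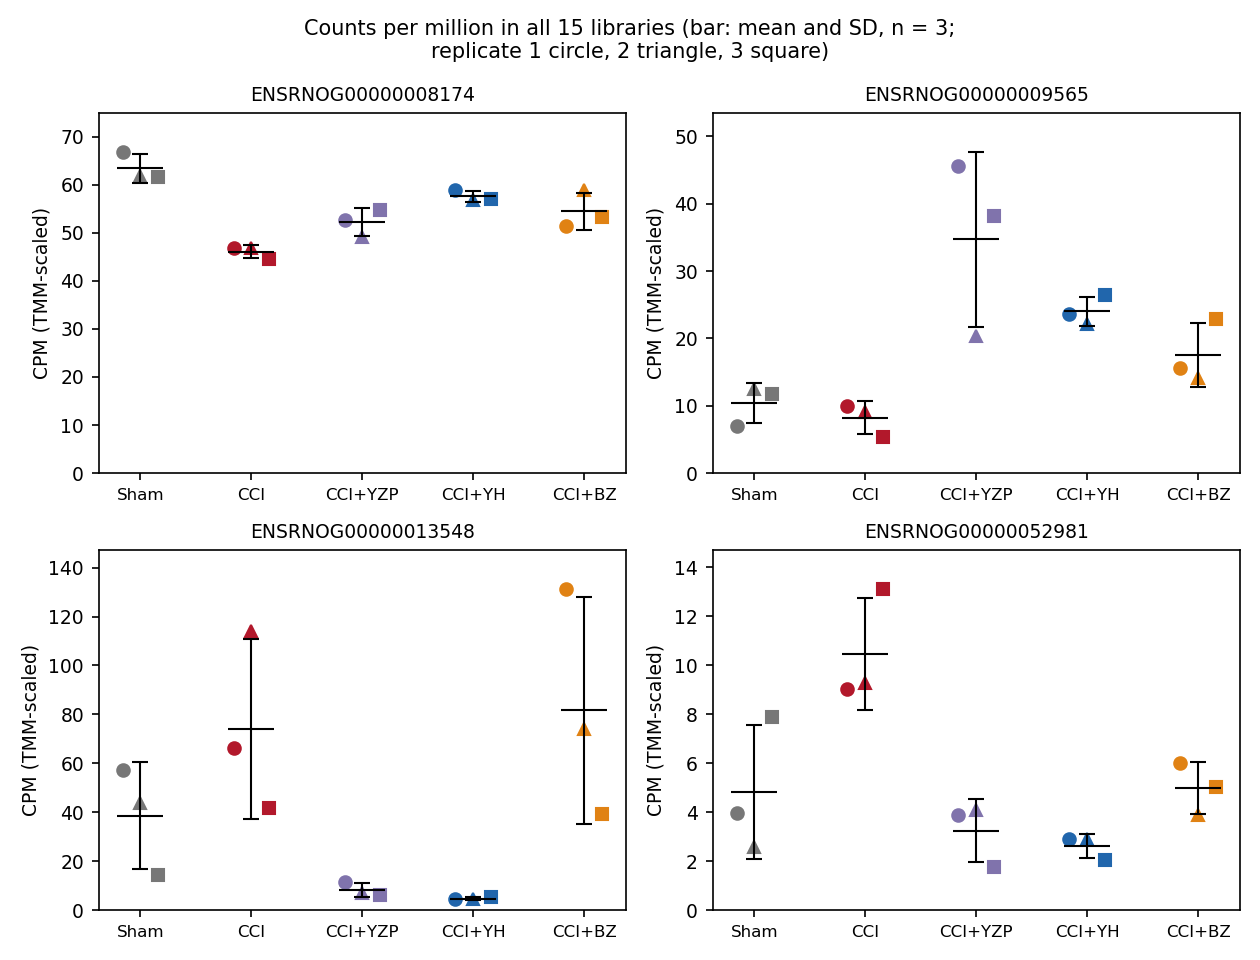
CPM of 4 identifiers (one panel each, vertical axis from 0) in the 15 libraries by group; points are libraries, with a circle, triangle and square for replicates 1, 2 and 3, and bars give the mean and SD of 3 libraries. In each panel the CCI+YH libraries do not overlap the CCI libraries, which goes with the choice of identifiers by smallest p in that comparison. At ENSRNOG00000013548 CCI+YZP libraries lie near those of CCI+YH while CCI+BZ libraries lie with CCI.

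The 13 genes called by DESeq2 hold these 4 identifiers and 9 others, 1 of which has no Ensembl identifier. The 10 lower genes had group means of 2.95 to 84.7 CPM in CCI and of 0.242 to 46.0 CPM in CCI+YH, with log2 fold changes of -3.98 to -0.41. At many of them, though not all, CCI replicate 3 was the highest CCI library. At the gene with -3.14, CCI replicates 1, 2 and 3 held 23.53, 15.585 and 49.617 CPM. Its means were 4.116 CPM in sham, 4.475 in CCI+YZP, 10.48 in CCI+BZ and 3.376 in CCI+YH. At the gene with -0.84, sham (7.131 CPM) and CCI+YZP (8.505) lay nearer to CCI (8.759) than to CCI+YH (4.912). The 3 higher genes had means of 2.82 to 46.0 CPM in CCI and 5.48 to 57.6 CPM in CCI+YH, with log2 fold changes of 0.32 to 1.54. All 13 had groups that did not overlap, which goes with their choice by small p in the same libraries. Groups also did not overlap at 1608 of the 14960 tested genes (10.7%), while the edgeR test called 0%. With 3 libraries against 3, the smallest exact two-sided permutation p is 0.1. That share is therefore close to the one reached with no effect at all. At the gene with -3.56, only the untreated libraries among the 6 reached the filter level of 1 CPM. The DESeq2 adjusted p of the 13 genes ran from 2.91e-08 to 0.0397 and their edgeR adjusted p from 0.143 to 0.699. CCI+YH replicate 2 was the lowest of the treated libraries at 11 of the 13 genes. These include the 3 higher genes, where the lowest treated library is the one nearest to CCI. How often it was the lowest over all tested genes was not counted. Leaving out CCI+YH replicate 2, DESeq2 called 5 genes, 3 of them among the 13, and ENSRNOG00000013548 (adjusted p = 2.32e-05), ENSRNOG00000009565 (0.00682) and ENSRNOG00000052981 (0.00751) were those 3. Leaving out CCI+YH replicate 3 left 1 call and leaving out replicate 1 left 9, and without CCI replicates 1, 2 or 3 the number was 8, 16 or 5. ENSRNOG00000013548 was called by DESeq2 without any one of the 6 libraries in turn.

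The 3 treated libraries differed from each other about as much as they differed from the untreated ones. The distance between libraries was taken as the root mean square difference in log2 CPM over the 14960 genes. It was 0.370 to 0.397 between CCI libraries, 0.420 to 0.468 between CCI+YH libraries, and 0.396 to 0.508 between a CCI and a CCI+YH library, with a mean of 0.429 in the last case and of 0.440 within CCI+YH. The median SD of log2 CPM was 0.105 in CCI and 0.131 in CCI+YH, and 8952 genes (59.8%) had the larger SD in CCI+YH. The first 3 principal components of the 6 libraries were examined. The first component held 30.4% of the variance, and the libraries scored -4.65, -4.17 and -24.8 in CCI and 8.31, 35.1 and -9.80 in CCI+YH. CCI+YH replicate 2 stood at one end of it and CCI replicate 3 at the other. The second component (19.7%) set all CCI libraries (13.7, 15.6 and 5.35) above all CCI+YH libraries (-7.28, 1.20 and -28.5), with replicate 3 as the extreme, and the third (19%) was led by CCI+YH replicate 1 at 30.1. Each treated library took the extreme place on a component of its own.

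**Figure D3:**
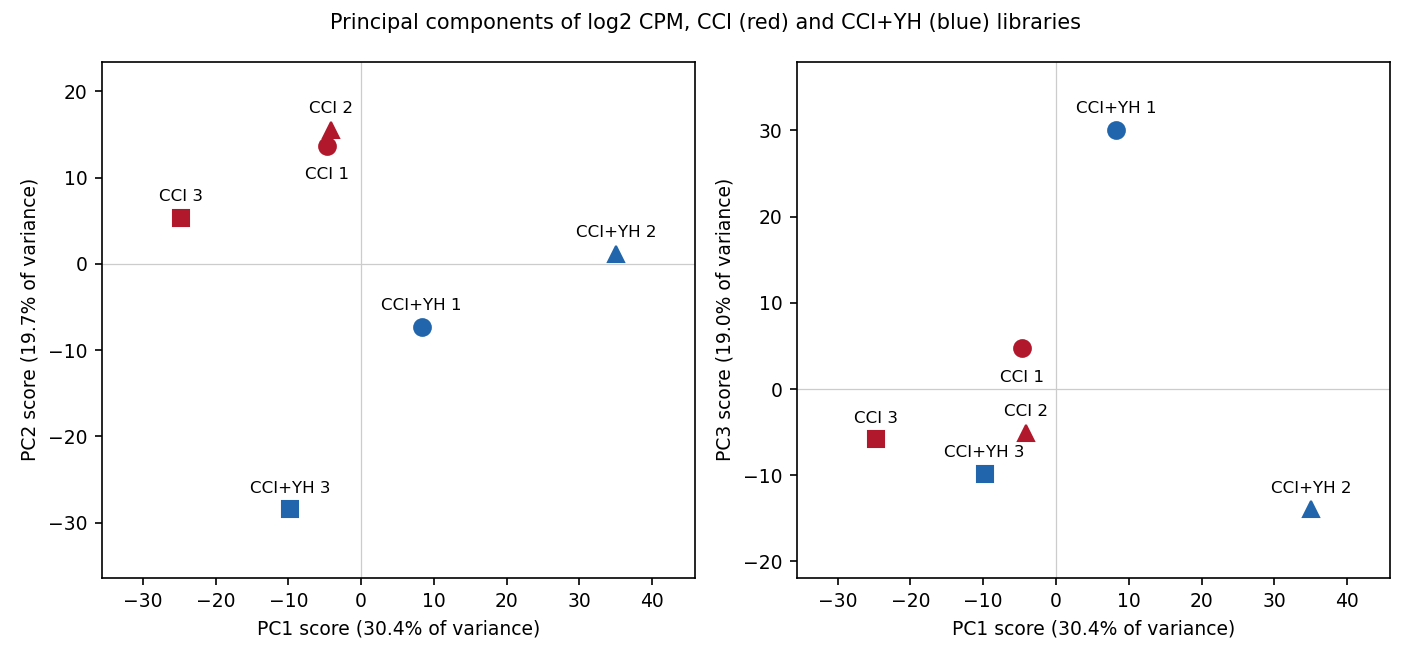
Scores of the 3 CCI libraries (red) and 3 CCI+YH libraries (blue) on the first component against the second (left) and the third (right), with the share of variance on each axis. CCI+YH replicates 2, 3 and 1 hold the extremes of components 1, 2 and 3 at 35.1, -28.5 and 30.1.

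CCI+YH replicate 2 was, of the 6 libraries, the one most often 2-fold below the others. At 54 genes it was at least 2-fold below each of the other 5 libraries, and at 14 genes at least 2-fold above. CCI+YH replicate 1 had 30 and 4 such genes, CCI+YH replicate 3 had 17 and 21, and CCI replicates 1, 2 and 3 had 6 and 11, 25 and 2, and 18 and 29. The 54 genes were of low abundance, with a median of 3.18 CPM. At 28 of them all 3 sham libraries also lay below the other 5 libraries, against 4 of 30 for CCI+YH replicate 1, 2 of 17 for CCI+YH replicate 3, and 1 of 6, 5 of 25 and 2 of 18 for the CCI libraries. The upward side did not show this: of the 14 genes at which CCI+YH replicate 2 lay above, all 3 sham libraries were also above at 1. Each of the other libraries had 0 to 2 such genes. Over all tested genes the mean distance of CCI+YH replicate 2 to the sham libraries was 0.431, against 0.482 for CCI+YH replicate 1 and 0.522 for CCI+YH replicate 3. Its mean distance was 0.417 to the CCI+YZP libraries and 0.430 to the CCI+BZ libraries, so sham was not its nearest group. The CCI libraries were at 0.491, 0.450 and 0.544 from sham, so that CCI replicate 2 was nearly as near to sham and nearer than the other treated libraries. These are descriptions of single libraries and were not tested. That CCI+YH replicate 2 lay apart was known from these data before the comparison was set.

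**Figure D4:**
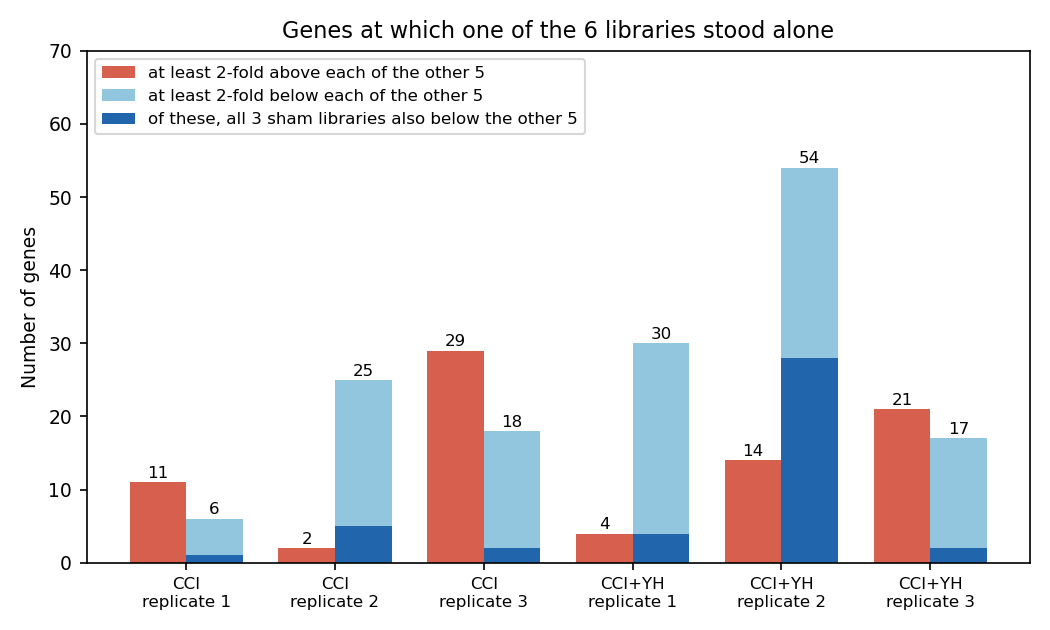
Number of genes (vertical axis) at which each of the 6 libraries lay at least 2-fold above (red) or below (blue) each of the other 5, with the dark part of the blue bar counting genes at which all 3 sham libraries lay below those 5 as well. CCI+YH replicate 2 has the tallest blue bar, 54 genes with 28 in the dark part.

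Library composition differed between libraries as well. The share of counts held by the 3 most abundant genes was 9.09% in CCI+YH replicate 2, above 7.91% and 7.38% in CCI+YH replicates 1 and 3 and 6.78% to 7.55% in CCI, and within the sham range of 8.49% to 9.60%. It ran from 7.02% to 8.56% in CCI+YZP and from 6.76% to 9.18% in CCI+BZ, so a share of this size was not particular to CCI+YH replicate 2. Total counts were 15093246, 20711139 and 17070571 in CCI+YH replicates 1, 2 and 3 and 22757104, 21997644 and 17616561 in CCI, and rows without an Ensembl identifier took 1.65% to 1.75% of the counts of these 6 libraries. The part of composition or depth in the differences between groups was not tested. At the 4 identifiers above, CCI+YH replicate 2 lay on the same side of all CCI libraries as the other treated libraries, and without it the log2 fold changes were -3.92, -2.08, 1.60 and 0.33 in the order in which they were described. Without it, edgeR called 0 genes and 609 had an unadjusted p under 0.05 (294 higher, 315 lower), in place of 827 (448 higher, 379 lower).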

How the data were processed

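Whole-number counts per gene were deposited by the authors, 1 table per library. Trizol-extracted total RNA went into an NEBNext Ultra kit, per the labels' protocols. Per the submitters' processing notes, rn4 was the build and DESeq2 1.16.1 was used. For the aligner, counter, annotation and strand setting, nothing is given in the sources used here; overlapping, antisense or near-identical genes may share counts.

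Genes with 1 CPM or more (counts scaled to the library total) in at least 3 of the 6 CCI and CCI+YH libraries were kept. Counts of all 15 libraries were scaled by the trimmed mean of M-values and fitted with edgeR 4.0.16 in R 4.3.3 (glmQLFit, glmQLFTest), 1 coefficient per group and 10 residual degrees of freedom; p-values were adjusted over all 14960 genes. CPM values in the text are after scaling. Dividing the log2 fold change by the square root of its F value gave the SE. Log2 CPM for distances and components used a prior count of 2. DESeq2 1.42.0 (0.05 threshold, 13 genes with no adjusted p) and limma 3.58.1 served as alternatives, beside other scalings and filters, fits of fewer libraries and a replicate block. The edgeR step was also run on simulated data, whose outcome is not given here and was not used to read the count of 0 genes. Same-group libraries differed by more than sampling noise (chi-square per gene 8.30 to 21.5), so none was merged. The labels give group sizes but do not say that libraries are separate rats. The p-values set group differences against the spread between libraries, in edgeR estimated over all 15.

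The reference table (GRCr8, 47357 genes) matched 0 identifiers, so the 48 gene lists drawn up by symbol were not tested and the planned naming by symbol was not possible. The identifiers printed are the 2 higher and the 2 lower with the smallest edgeR p. The comparison, lists and rules were chosen with earlier results of these data known. No sequences are shown, because identifiers could not be joined to them.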

Additional observations from a re-analysis of the deposited data

Results flagged for a closer look

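The effect of YH and that of BZ, each against the untreated ligated group, differed at ENSRNOG00000013548 by the direct test between the treated groups, with a log2 fold change of -4.12 in CCI+YH against CCI+BZ (edgeR adjusted p = 0.0208, range 2.3e-09 to 0.301 over 25 alternatives). All 3 CCI+YH libraries lay below all 3 CCI+BZ libraries. The doses of YH and BZ differed. No formal test for an outlying sample was run on groups of 3 libraries.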

How the results depend on the processing

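Directions at the 4 identifiers held under all 38 alternatives run for CCI+YH against CCI. The identifiers were chosen by their p in these same libraries, so their directions could hardly reverse and this is no separate support. The number of called genes was 0 under 24 of 39 alternatives. It was 13 with DESeq2, 1 with only the 6 libraries (a gene other than the 4 described), and 0 to 2 when each of the 15 libraries was left out in turn (1 without Sham replicate 3, 2 without CCI replicate 3). Chosen after seeing the data, fits of 5 of the 6 libraries called 2, 10 and 8 genes without CCI replicates 1, 2 and 3 and 0, 5 and 0 without CCI+YH replicates 1, 2 and 3, and DESeq2 called 8, 16 and 5 and then 9, 5 and 1 in the same order. Genes at an unadjusted p under 0.05 numbered 539 without CCI replicate 3 and 1280 without CCI+YH replicate 3 in the 5-library fits, and 492 and 512 in DESeq2 without CCI replicate 3 and CCI+YH replicate 2. The cause was not tested.

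With a replicate block 1 gene was called, ENSRNOG00000013548 (adjusted p = 0.0122). Same-numbered CCI and CCI+YH libraries deviated together with correlations of 0.0425, 0.112 and 0.183; CCI replicate 1 correlated better with CCI+YH replicate 2 (0.0708) than with its own number, and the numbers were not taken as pairs. The other scalings run, RLE and upper-quartile, called 0 genes. Below 2 CPM, 2-fold differences were often not resolved at this depth.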
